A study of Mus musculus with 8 samples.

Results

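Proteasome genes were compared between mouse inner medullary collecting duct cells kept in control medium and cells kept in hypertonic medium. The members were the rows of the raw count table whose symbol has the form Psma, Psmb, Psmc, Psmd, Psme, Psmf or Psmg followed by a number, leaving out the inducible genes Psmb8, Psmb9 and Psmb10. This gave 44 of the 15288 genes in the table, and all 44 passed the filter on low counts and were among the 14024 genes tested. The cells, a mouse line labelled IMCD, were grown in serum-containing DMEM to 90% confluence and then held for 12 h in serum-free DMEM. The control group (replicates 1 to 4) received no added NaCl and the NaCl group (replicates 5 to 8) received 100 mmol NaCl, an amount the labels give without a volume. The stated purpose of the series was the transcriptional response of these cells to hypertonic stress.

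The proteasome is the large protease that degrades proteins tagged with ubiquitin. Its 20S core is a barrel of alpha and beta rings, with the active sites inside the beta rings. The 19S regulatory particle sits on the ends of the barrel: a ring of ATPases unfolds the substrate and pushes it in, non-ATPase subunits of the base bind ubiquitin, and the lid removes the ubiquitin chain. Assembly chaperones build these pieces, and other activators can replace the 19S particle. Hypertonic salt is known to damage proteins and shrink cells, and cells of the renal medulla live with it.

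The members sorted into 7 alpha ring genes, 7 beta ring genes, 6 ATPases, 3 base non-ATPases, 8 lid genes, 3 base assembly chaperones, 4 core assembly chaperones and 6 genes for activators, an inhibitor and a retrocopy. Psma8 and Psmb11, known from testis and thymus, were not analysed here. Counts of the members lay between 221 and 23234 in a library, and the libraries held 35286796 to 47565623 counts in total. Nothing in the labels says that the 4 libraries of a group came from separate cultures, so p-values measure only the spread between these libraries, which may be technical. In such bulk RNA, fewer cells of a type and less RNA per cell cannot be told apart.

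The labelled cell type was checked against its markers. Levels are given as CPM, counts per 1000000 counts of the TMM-scaled library total. Of 16 collecting duct and epithelial markers 15 were in the table, and Pax8 (160 CPM in control and 231 CPM in NaCl libraries), Pax2 (78.8 and 185), Krt18 (217 and 205), Krt8 (109 in control) and Epcam (27.3 in control) were well above 0. Aqp2, the vasopressin-regulated water channel, was at 0.0241 CPM in control and 0.305 CPM in NaCl libraries, and Cdh1, the epithelial cadherin, at 0.195 and 0.535 CPM, and Aqp3, Aqp4, Avpr2 and Hsd11b2 were also below 1 CPM in both groups, so most of the defining markers of collecting duct principal cells were nearly absent. Gata3 (8.10 and 5.97 CPM) and Tfcp2l1 (130 and 100.5 CPM), transcription factors of this lineage, were called lower, and Pax2, Pax8, Avpr2 and Cdh1 were called higher. Gata3, Avpr2 and Cdh1 were not called when a linear drift over library numbers was in the fit. In that fit Krt8 (-0.57), Krt18 (-0.525), Krt19 (-1.34) and Epcam (-0.32) were called lower, at edgeR adjusted p-values between 5.99e-08 and 0.0372. Hsd11b2 was called higher (2.35, adjusted p = 0.0219), and none of them was called without the drift. Krt19 went from 50.8 to 84.3 CPM over the controls and from 40.3 to 90.4 CPM over the NaCl libraries. With the number fitted inside the groups, 6 of 13 markers were called rising, where 6.95% of all tested genes were. Of the markers of other cells, none of 4 for intercalated cells and none of 2 for endothelium were in the table. The 4 fibroblast markers together lay between 2371 and 2716 CPM in control and between 2031 and 2383 CPM in NaCl libraries, nearly all of it from Col1a1. Within that list Col1a1 and Pdgfra were called lower, and Pdgfrb rose from 37.5 to 61.1 CPM. With the drift in the fit Col1a1 (-0.20, edgeR adjusted p = 0.437) and Pdgfra (-0.52, 0.452) were not called, and Pdgfrb was (0.96, 3.63e-09). Of 3 leukocyte markers 2 were in the table, together between 5.95 and 7.19 CPM in control and between 14.9 and 15.3 CPM in NaCl libraries: Ptprc rose from 4.05 to 13.5 CPM, while Cd68 was at 2.41 and 1.69 CPM. The 2 proximal tubule markers found together lay between 162 and 205 CPM in control and between 155 and 176 CPM in NaCl libraries. Nearly all of this came from Lrp2 (185 and 162 CPM), while Cubn was at 2.16 and 2.45 CPM. What part cells with any of these markers had in the results below was not tested.

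Promoter sequences are shown first, to set the letters upstream of members that fell beside those of the member that rose. RefSeq promoters (GRCm38.p6, 250 bases before to 50 after the start) were at hand for 37 members, and Psmb1, Psmb2, Psmb7, Psmc3, Psmd3, Psmd7 and Psmg2 had no entry. The first listed start of each gene was searched on both strands for 3 motifs, and no matches of different motifs overlapped in these 37 promoters. The core of the binding sequence of ETS transcription factors, CCGGAA, occurred in 19 of 37 member promoters (51.4%), against 28.2% of 10659 promoters of tested genes and 15.2% of all 27025 promoters. It was in 10 of 14 promoters of 19S genes, made up of 4 of 5 ATPases, 2 of 3 base non-ATPases and 4 of 6 lid genes, and in 3 of 11 promoters of the 20S core. The core count depends on the start used: a second listed start of the core gene Psma6, not counted here, held 4 matches, and the first held none. The antioxidant response element core, TGACNNNGC, through which the factor NRF1 (gene Nfe2l1) is known to drive proteasome genes, was in 6 of 37 (16.2%) against 14.7% of promoters of tested genes. CCAAT was in 12 of 37 (32.4%) against 39.1%. A match is a run of letters and not a measured site. These 5 promoters are printed 5′ to 3′ on the strand of the gene: the member with the highest CPM (Psmd2), a lid gene with a pair of matches (Psmd11), the activator that fell most (Psme4), the lid gene that fell most (Psmd8) and the member that rose (Psmd5). Capitals mark CCGGAA or its reverse complement TTCCGG, and the last 50 bases follow the RefSeq start. The 5 were chosen after their values had been seen.
Psmd2, chr16:20651402-20651701, plus strand: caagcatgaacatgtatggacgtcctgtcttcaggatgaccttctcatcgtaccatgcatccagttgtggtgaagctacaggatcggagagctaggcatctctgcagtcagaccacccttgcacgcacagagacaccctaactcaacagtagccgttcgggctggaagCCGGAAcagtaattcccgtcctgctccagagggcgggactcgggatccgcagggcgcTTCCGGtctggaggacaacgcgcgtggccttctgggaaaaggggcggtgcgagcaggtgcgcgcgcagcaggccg
Psmd11, chr11:80428365-80428664, plus strand: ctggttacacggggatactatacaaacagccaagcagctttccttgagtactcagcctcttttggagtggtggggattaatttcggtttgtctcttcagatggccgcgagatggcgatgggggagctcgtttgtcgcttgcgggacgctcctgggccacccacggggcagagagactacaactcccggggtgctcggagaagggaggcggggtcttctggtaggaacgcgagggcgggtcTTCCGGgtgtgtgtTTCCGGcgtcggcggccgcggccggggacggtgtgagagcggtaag
Psme4, chr11:30771525-30771824, plus strand: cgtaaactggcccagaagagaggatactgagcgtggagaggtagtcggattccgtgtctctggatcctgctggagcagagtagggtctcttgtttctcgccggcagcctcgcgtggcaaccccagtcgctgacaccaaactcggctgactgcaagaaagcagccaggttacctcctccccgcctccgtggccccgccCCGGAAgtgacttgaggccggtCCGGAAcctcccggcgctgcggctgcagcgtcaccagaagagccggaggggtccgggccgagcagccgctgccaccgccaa
Psmd8, chr7:29180624-29180923, minus strand: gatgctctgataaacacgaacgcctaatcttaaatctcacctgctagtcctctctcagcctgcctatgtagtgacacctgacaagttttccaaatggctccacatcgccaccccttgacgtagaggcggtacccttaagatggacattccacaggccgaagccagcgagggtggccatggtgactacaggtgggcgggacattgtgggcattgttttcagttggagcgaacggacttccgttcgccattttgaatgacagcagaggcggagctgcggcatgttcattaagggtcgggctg
Psmd5, chr2:34870913-34871212, minus strand: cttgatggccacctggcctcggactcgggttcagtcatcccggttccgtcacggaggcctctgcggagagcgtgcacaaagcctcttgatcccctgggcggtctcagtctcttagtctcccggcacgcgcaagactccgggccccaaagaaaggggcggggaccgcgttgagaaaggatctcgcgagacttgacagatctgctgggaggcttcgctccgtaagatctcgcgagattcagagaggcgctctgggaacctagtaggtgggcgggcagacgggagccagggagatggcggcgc
Psmd2, Psmd11 and Psme4 each hold a pair of matches, and Psmd8 and Psmd5, which moved in opposite directions, hold none. Of the 24 members with a promoter that were called lower 12 had the ETS core, and of the 13 others 7 had it.

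Most proteasome genes were modestly lower in hypertonic medium. Of the 44 members 28 were called lower with NaCl (adjusted p under 0.05 in the quasi-likelihood test of edgeR, Benjamini-Hochberg over 14024 genes), where 17.2% of all tested genes were. Only Psmd5 was called higher, where 16.9% of all tested genes were, and 15 members were not called. In either direction 34.1% of all tested genes were called. The median log2 fold change (NaCl over control) of the members was -0.15, a change of -9.8%, beside a median of 0.003 over all genes tested. Of the 28 lower genes 25 changed by less than 1.2-fold. Together the 44 genes took 6144 ± 189 CPM in the control group and 5579 ± 72.6 CPM in the NaCl group (SD, n = 4 each), and the NaCl range (5514 to 5669) lay below the control range (5974 to 6310). Among the 3126 genes whose abundance lay in the range of the 20S and 19S genes, 23.2% were called lower and 21.8% higher. Groups did not overlap for 29 members with NaCl below, where 16.9% of all tested genes showed this, and for 1 member with NaCl above (16.5%).

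Most core and lid genes and a smaller number of the ATPase genes were called lower. Of the 14 core genes 12 fell, with a median log2 fold change of -0.16, and of the 8 lid genes 7 fell, with a median of -0.17. Only 2 of the 6 ATPase genes fell, though 4 of the 6 were lower at an unadjusted p under 0.05, and the ATPase median was -0.09, while all 3 base non-ATPases fell (median -0.15). All 31 core and 19S genes had a log2 fold change below 0, where 49.6% of all tested genes and 52.4% of those of like abundance did. No core or 19S gene was called higher by edgeR, DESeq2 or limma-voom, and none was higher at an unadjusted p under 0.05. Summed over genes, the change was -10.7% for the core, -11.2% for the lid, -9.56% for the base non-ATPases and -6.51% for the ATPases. The differences between these subcomplexes were not tested, since genes are not replicates.

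**Figure D1:**
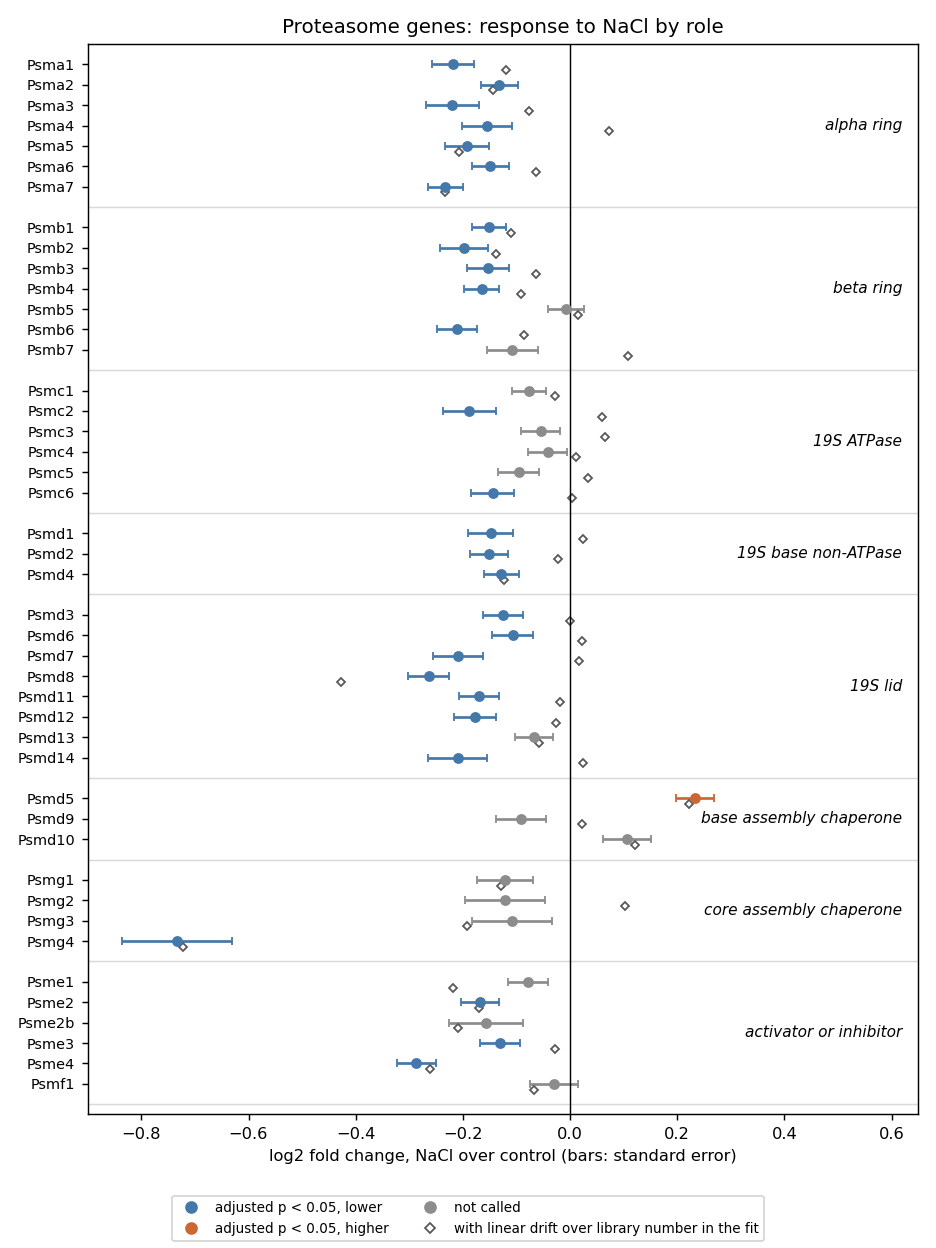
Fitted log2 fold change (NaCl over control, horizontal axis, bars are standard errors) of each of the 44 genes, grouped by role, with open diamonds for the value when a linear drift over library numbers 1 to 8 is in the fit. All core and 19S circles lie left of 0, Psmd5 lies at 0.23 and Psmg4 at -0.73, and many diamonds of 19S genes lie near 0.

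The difference between the groups ran together with differences inside the control group. Control replicates 1 and 2 had more proteasome transcript (6306 and 6310 CPM) than control replicates 3 and 4 (5974 and 5986 CPM), and the NaCl replicates 5 to 8 had 5669, 5527, 5607 and 5514 CPM. For the ATPases the sums were 1203, 1198, 1109 and 1113 CPM in control and 1106, 1075, 1075 and 1066 CPM in NaCl libraries, so control replicates 3 and 4 lay close to NaCl replicate 5. The lid sums were 1200, 1163, 1118 and 1118 CPM against 1042, 1009, 1022 and 1011 CPM, and the core sums 2009, 2070, 1939 and 1920 against 1805, 1743, 1787 and 1751 CPM. These sums and those of the ATPases did not overlap between the groups, but for the ATPases the nearest values were 1109 and 1106 CPM. With the library number fitted inside the groups, 16 of 17 19S genes and 11 of 14 core genes had a slope below 0, as had 6 of the other 13 members and 7171 of all 14024 genes tested. Of the 44 members 6 were called falling (edgeR adjusted p under 0.05; 6.22% of all tested genes) and 1, Psmd8, rising (6.95%). The labels do not say what the number stands for. Since all control numbers come before all NaCl numbers, a steady drift over the numbers and the treatment cannot be told apart in full.

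When a linear drift over numbers 1 to 8 was put in the fit, 7 members were called lower and 1 higher, where 12.6% and 11.5% of all tested genes were. Those lower were Psma5, Psma7, Psmd8, Psmg4, Psme1, Psme2 and Psme4, of which all but Psme1 were also called without the drift, and Psmd5 was again the gene called higher. Of the 28 members called lower without the drift, 21 were still below 0. Standard errors were larger in that fit, since the number and the group run together. Psmd4 (-0.12, SE 0.060) and Psma2 (-0.14, SE 0.064) lost their call at nearly the same value as without the drift (both -0.13). Other values moved far more, such as that of Psmd14 from -0.21 to 0.024. The medians became -0.09 for the core, -0.01 for the lid and 0.02 for the ATPases. Leaving out control replicates 1 and 2 gave 19 members lower and 1 higher (3938 of all genes called, against 4789 with every library), with medians of -0.13, -0.11 and -0.05 for core, lid and ATPases. Leaving out single libraries gave between 25 and 31 members lower, and 25 of the 28 lower members kept their call each time.

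**Figure D2:**
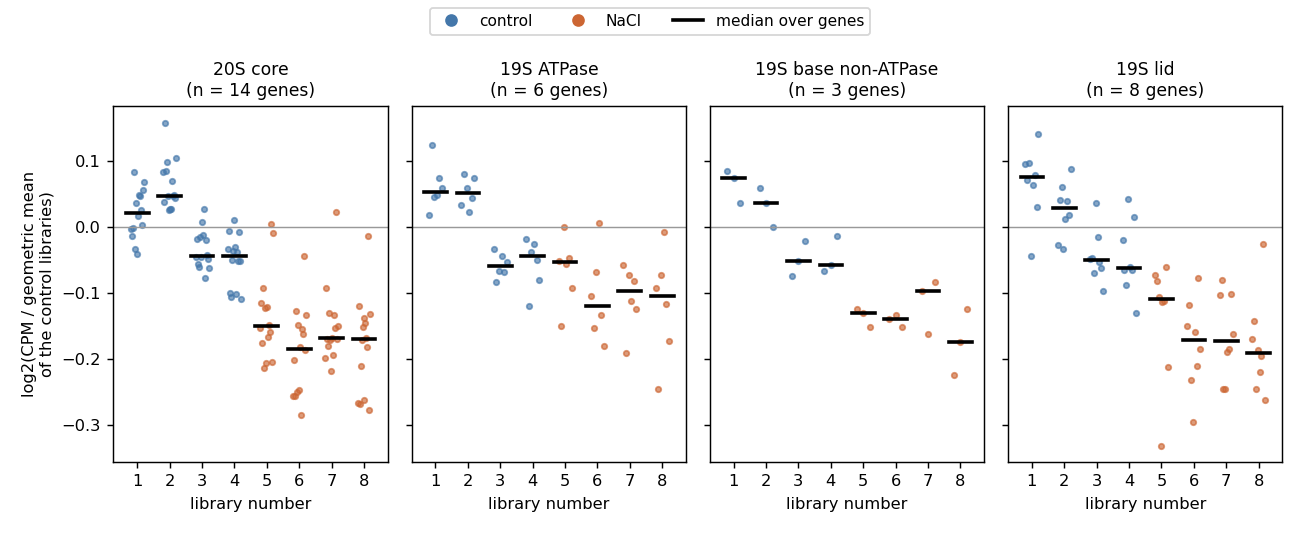
Each point is the level of 1 gene in 1 library as log2 of its CPM over the geometric mean of the 4 control libraries (vertical axis), against library number, for the core, ATPase, base and lid genes. Black bars are medians over genes; those of control replicates 1 and 2 lie above 0, those of control replicates 3 and 4 below 0, and those of the NaCl libraries of core, base and lid genes lowest.

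In the alpha ring, whose subunits form the gate of the barrel, all 7 genes fell, with log2 fold changes between -0.23 and -0.13. Psma7 fell most, at 158, 166, 164 and 164 CPM in control replicates 1 to 4 and 141, 138, 140 and 136 CPM in NaCl replicates 5 to 8. Every NaCl library lay below every control library (log2 fold change -0.23, SE 0.032, edgeR adjusted p = 3.25e-05). The change was as large with the drift in the fit (-0.23, adjusted p = 0.00429). Psma2 fell least, at 157, 162, 156 and 158 CPM in control and 146, 138, 148 and 146 CPM in NaCl libraries, again without overlap (-0.13, SE 0.034, edgeR adjusted p = 0.00667). The other alpha genes fell by 0.15 (Psma6), 0.16 (Psma4), 0.19 (Psma5) and 0.22 (Psma1, Psma3) on the log2 scale. With the drift in the fit Psma5 kept its call (-0.21, edgeR adjusted p = 0.0378). Psma1 (-0.12), Psma2 (-0.14), Psma3 (-0.08), Psma4 (0.07) and Psma6 (-0.06) lost theirs, at edgeR adjusted p-values between 0.0991 and 0.555. Psma4 was the alpha gene whose groups overlapped; its call was lost without control replicate 2 (edgeR adjusted p = 0.0658), NaCl replicate 7 (0.0537) or NaCl replicate 8 (0.0515), with a range from 3.90e-04 to 0.516 over its alternatives. Psma5 shares 76.5% of its longest transcript with the annotated gene Gm8394 and Psma3 23.4% with Gm13835 at 98% identity, so their counts are uncertain.

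In the beta ring 5 of 7 genes fell, where 17.2% of all tested genes did. Of the 3 genes that carry the active sites 1 was called, near the 34.1% of all tested genes called in either direction. Differences between these 3 genes were not tested. Psmb6, which encodes the caspase-like subunit, fell from 183, 181, 170 and 170 CPM in control to 152, 154, 156 and 145 CPM in NaCl libraries. Its groups did not overlap (log2 fold change -0.21, SE 0.037, edgeR adjusted p = 3.49e-04). Psmb7, which encodes the trypsin-like subunit, was at 150, 153, 137 and 132 CPM in control and 142, 130, 129 and 130 CPM in NaCl libraries. Here NaCl replicate 5 lay above control replicates 3 and 4, and the gene was not called (-0.11, SE 0.048, edgeR adjusted p = 0.0954). Psmb5, which encodes the chymotrypsin-like subunit, was at 126, 130, 122 and 125 CPM in control and 126, 122, 128 and 125 CPM in NaCl libraries. The libraries of both groups were interleaved (log2 fold change -0.01, SE 0.034, edgeR adjusted p = 0.875). At 98% identity, 88.4% of the Psmb5 transcript is also found in Gm3375, so reads of the pair can be exchanged and its level is uncertain. Without NaCl replicate 5 Psmb7 was called lower (-0.14, edgeR adjusted p = 0.0364), and it was also called without control replicate 4 (0.0222), with a range from 0.00833 to 0.748 over its alternatives.

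The structural beta genes that fell were Psmb1, Psmb2, Psmb3 and Psmb4, by 0.15, 0.20, 0.15 and 0.17 on the log2 scale. Psmb1 fell least of the called beta genes, from 188, 189, 184 and 182 CPM to 171, 164, 165 and 169 CPM, with no overlap (SE 0.032, edgeR adjusted p = 0.00139). For Psmb3, 19.7% of the longest transcript is also found elsewhere in the annotation. With the drift in the fit none of the 7 beta genes was called, at edgeR adjusted p-values between 0.186 and 0.915. Standard errors were larger in that fit, and the values of the called genes also moved toward 0. Psmb1 was at -0.11 (SE 0.059), Psmb2 at -0.14 (SE 0.082), Psmb3 at -0.06, Psmb4 at -0.09 and Psmb6 at -0.09. The values of Psmb7 and Psmb5, not called in either fit, were 0.11 and 0.01.

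The inducible counterparts of the active-site genes, which interferon is known to raise and which replace them in the immunoproteasome, fell more. Psmb9, the counterpart of Psmb6, was at 4.50, 3.84, 4.74 and 4.85 CPM in control and 1.78, 2.01, 2.38 and 1.79 CPM in NaCl libraries. Psmb8, the counterpart of Psmb5, was at 14.7, 15.6, 15.8 and 14.8 CPM and then 8.68, 7.02, 8.72 and 7.17 CPM. Psmb10, the counterpart of Psmb7, was at 46.4, 48.6, 47.1 and 43.6 CPM and then 41.9, 36.6, 34.9 and 37.0 CPM. None of the 3 had overlapping groups. Their log2 fold changes were -1.17 (SE 0.15, edgeR adjusted p = 1.70e-05), -0.95 (SE 0.090, 5.19e-07) and -0.31 (SE 0.058, 6.37e-04). With the drift in the fit Psmb9 and Psmb8 were still called and Psmb10 was not (edgeR adjusted p = 0.414, in a range up to that value over its alternatives).

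Set against its counterpart in the same library, each inducible gene was lower with NaCl. The CPM of Psmb9 were 2.56 ± 0.338% of those of Psmb6 in control and 1.31 ± 0.153% in NaCl libraries (log2 difference of the ratio -0.97; errors here are SDs of the 4 libraries of a group). For Psmb8 over Psmb5 the values were 12.1 ± 0.547% and 6.29 ± 0.632% (-0.95), and for Psmb10 over Psmb7 they were 32.5 ± 1.5% and 28.3 ± 0.996% (-0.20). The exact two-sided permutation test gave p = 0.0286 for each of these 3 ratios, also after Benjamini-Hochberg adjustment over the 3, which is the smallest value that 4 against 4 libraries can give. These ratios were chosen after the values had been seen, and they are not corrected for gene length. Every control library had a higher ratio than every NaCl library in each pair.

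**Figure D3:**
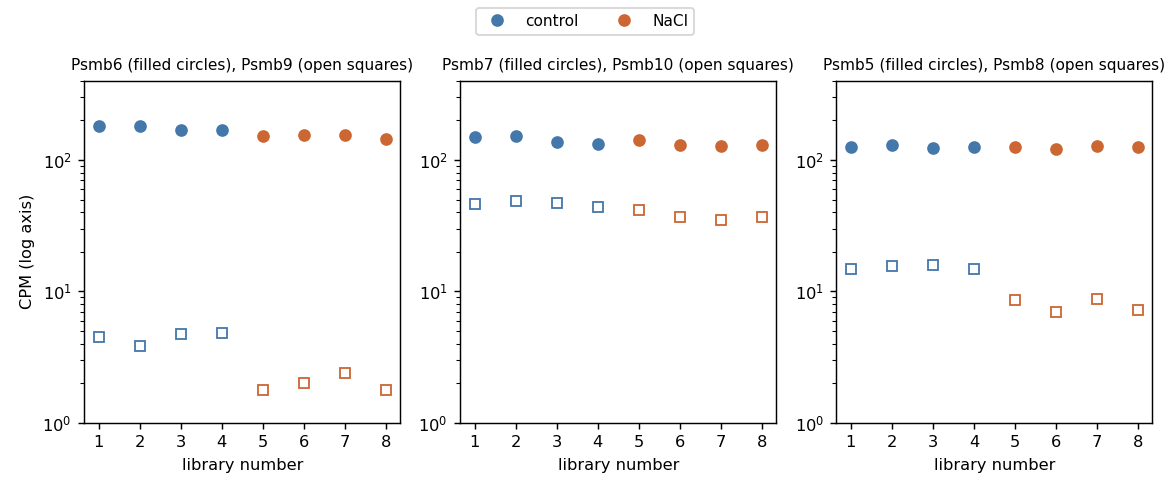
CPM on a log axis against library number for the active-site genes Psmb6, Psmb7 and Psmb5 (filled circles) and their inducible counterparts Psmb9, Psmb10 and Psmb8 (open squares), control in blue and NaCl in orange. The squares of Psmb9 and Psmb8 drop from 3.84 to 4.85 and 14.7 to 15.8 CPM in control to 1.78 to 2.38 and 7.02 to 8.72 CPM in NaCl libraries, while the circles of Psmb5 stay between 122 and 130 CPM.

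Of the 6 ATPases of the 19S base, which thread the substrate into the core, Psmc2 and Psmc6 were called. Psmc2 was at 207, 201, 180 and 175 CPM in control and 172, 171, 167 and 160 CPM in NaCl libraries. Psmc6 was at 186, 188, 172 and 169 CPM and then 168, 158, 164 and 158 CPM. In both genes control replicates 3 and 4 lay just above NaCl replicate 5, with no overlap between the groups. The log2 fold changes were -0.19 (SE 0.050, edgeR adjusted p = 0.00866) and -0.14 (SE 0.040, 0.0104). With the drift in the fit they were 0.06 and 0.00 and neither was called, nor was either without control replicates 1 and 2 (edgeR adjusted p = 0.119 and 0.15). The log2 fold changes of the remaining ATPases were -0.10 for Psmc5, -0.08 for Psmc1, -0.06 for Psmc3 and -0.04 for Psmc4, at edgeR adjusted p-values between 0.0664 and 0.408. DESeq2 also called Psmc1 (adjusted p = 0.0365), whose groups did not overlap. When a trend over library number inside the groups was fitted beside the treatment, Psmc1 (edgeR adjusted p = 0.0247) and Psmc5 (0.0148) were called as well, so 4 of the 6 ATPases were lower in that fit. Psmc5 was also called without control replicate 3 (0.0365) or control replicate 4 (0.0418); over all alternatives the range was 0.0247 to 0.79 for Psmc1 and 0.0148 to 0.78 for Psmc5.

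The 3 non-ATPase subunits of the base are the scaffolds Psmd1 and Psmd2, which dock ubiquitin receptors and shuttle proteins, and the ubiquitin receptor Psmd4. Psmd2 had the highest CPM of all members, at 487, 475, 447 and 444 CPM in control and 423, 422, 413 and 410 CPM in NaCl libraries. Psmd1 was at 246, 241, 220 and 221 CPM and then 213, 210, 217 and 198 CPM, and Psmd4 at 205, 200, 197 and 198 CPM and then 180, 180, 189 and 184 CPM. All 3 fell without overlap, with log2 fold changes of -0.15 for Psmd2 (SE 0.035, edgeR adjusted p = 0.00316), -0.15 for Psmd1 (SE 0.042, 0.0119) and -0.13 for Psmd4 (SE 0.032, 0.00535). The value of Psmd4 with the drift in the fit was -0.12, while those of Psmd1 and Psmd2 were 0.02 and -0.02; none of the 3 was called there.

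In the lid 7 of 8 genes fell. Psmd8, known as the last subunit to join the lid, fell most, from 193, 195, 204 and 205 CPM in control to 158, 162, 168 and 175 CPM in NaCl libraries. Its groups did not overlap (log2 fold change -0.26, SE 0.038, edgeR adjusted p = 4.68e-05), and unlike the sum of the lid genes it was higher in control replicates 3 and 4 than in 1 and 2. With the drift in the fit its value was -0.43 (adjusted p = 5.39e-07). Psmd14, the zinc-dependent enzyme that cuts ubiquitin chains from the substrate, fell from 115, 111, 97.4 and 95.1 CPM to 89.9, 91.6, 93.1 and 86.8 CPM. The gap between control replicate 4 and NaCl replicate 7 was small against the spread of the controls (log2 fold change -0.21, SE 0.055, edgeR adjusted p = 0.00832). With the drift in the fit the value was 0.02, and the call was lost without control replicates 1 and 2 (edgeR adjusted p = 0.131). Psmd7, the partner of Psmd14 in the lid, also fell by 0.21 on the log2 scale (SE 0.046, edgeR adjusted p = 0.00231), and was at 0.02 with the drift in the fit (adjusted p = 0.894).

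Psmd6 fell least of the called lid genes, from 120, 118, 111 and 109 CPM to 108, 105, 108 and 104 CPM. Its call (log2 fold change -0.11, SE 0.039, edgeR adjusted p = 0.0406) was lost when any of 6 libraries was left out, at -0.12 to -0.09 and adjusted p-values between 0.0505 and 0.111. The other lid genes fell by 0.12 (Psmd3), 0.17 (Psmd11) and 0.18 (Psmd12) on the log2 scale. Psmd3 lost its call without control replicate 1, NaCl replicate 6 or NaCl replicate 8 (edgeR adjusted p between 0.0509 and 0.0559). Psmd13 was the lid gene not called, at -0.07 on the log2 scale (SE 0.036, edgeR adjusted p = 0.165), and shares 17.2% of its longest transcript with its neighbour Sirt3 on the opposite strand.

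Of the 3 chaperones that assemble the 19S base, 1 was called higher and none lower by edgeR, DESeq2 or limma-voom, nor was any lower at an unadjusted p under 0.05. By edgeR 16.9% of all tested genes were called higher and 17.2% lower, so counts among 3 genes say little. Psmd5 (chr2:34849734-34874968, minus strand), a chaperone that holds ATPases before they join the base and is also known to hinder assembly of the full particle, was the member that rose. It was at 77.3, 77.2, 77.0 and 74.8 CPM in control and 88.8, 88.0, 91.4 and 91.9 CPM in NaCl libraries. Every NaCl library lay above every control library (log2 fold change 0.23, a change of 17.6%, SE 0.036, edgeR adjusted p = 8.86e-05), and the value was 0.22 with the drift in the fit (adjusted p = 0.0213). Psmd10, also known as gankyrin, lay 0.11 higher on the log2 scale with overlapping groups (SE 0.045, edgeR adjusted p = 0.0793). It was called without control replicate 4 (0.13, adjusted p = 0.0394, in a range from 0.0369 to 0.326 over its alternatives). Psmd9 had -0.09 (SE 0.047, edgeR adjusted p = 0.144). It was called lower without control replicate 4 (-0.13, adjusted p = 0.0376, in a range up to 0.897 over its alternatives), and 25.5% of its exonic bases overlap Gm26745 on the opposite strand. The 3 genes summed to 186.5 ± 2.37 CPM in the control group and 201.4 ± 0.638 CPM in the NaCl group (SD, n = 4 each).

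Of the chaperones that assemble the core, Psmg4 (chr13:34162964-34178173, plus strand), which pairs with Psmg3 on the forming alpha ring, had the largest fold change of all members. It was at 8.49, 9.36, 9.90 and 9.57 CPM in control and 6.42, 5.25, 5.55 and 5.26 CPM in NaCl libraries, from 395 to 410 and 221 to 230 counts. The groups did not overlap (log2 fold change -0.73, a change of -39.8%, SE 0.10, edgeR adjusted p = 3.40e-05), and the value with the drift was -0.72 (adjusted p = 0.00911). Psmg3, its partner, was not called (log2 fold change -0.11, SE 0.075, edgeR adjusted p = 0.285), nor were Psmg1 and Psmg2, the other pair of alpha ring chaperones (both -0.12, adjusted p = 0.0854 and 0.232). The value of Psmg3 was -0.05 without control replicate 4, and 11.7% of its longest transcript is also found in Gm26938. The difference between Psmg4 and Psmg3 was not tested.

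Of the genes for other regulators of the core, Psme2, Psme3 and Psme4 fell. Psme4, which encodes the nuclear activator PA200, was at 148, 151, 145 and 146 CPM in control and 119, 122, 128 and 116 CPM in NaCl libraries. Every NaCl library lay below every control (log2 fold change -0.29, SE 0.036, edgeR adjusted p = 1.24e-05), also with the drift in the fit (-0.26, adjusted p = 0.00355). Psme2, a subunit of the interferon-inducible 11S activator, fell from 147, 152, 147 and 156 CPM to 139, 132, 131 and 134 CPM without overlap (-0.17, SE 0.035, edgeR adjusted p = 0.00131). It shares 82.5% of its longest transcript with its retrocopy Psme2b (-0.16, SE 0.069, edgeR adjusted p = 0.0878), so the counts of this pair can be exchanged. Psme1, the partner of Psme2 in the 11S ring, was not called (-0.08, SE 0.037, edgeR adjusted p = 0.114). Psme3, a nuclear activator of the same family, was at 138, 128, 128 and 128 CPM and then 122, 118, 122 and 116 CPM, with control replicate 1 well above the other controls (-0.13, SE 0.037, edgeR adjusted p = 0.0113). It was not called with the drift in the fit (-0.03, edgeR adjusted p = 0.82) or without control replicates 1 and 2 (-0.10, 0.0638). Psmf1, the inhibitor PI31, had -0.03 (SE 0.044, edgeR adjusted p = 0.65).

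Levels of different members were compared per length, as CPM per kilobase of annotated exons. In control libraries the medians were 49.2 for the 14 core genes, 83.9 for the 6 ATPases and 40.3 for the 8 lid genes. With the longest annotated transcript as the length they were 96.6, 89.2 and 68.5, so the order of core and ATPases depended on the length used. Within the core, whose subunits are present in equal number in the particle, levels ran from 35.3 ± 2.82 (Psma3) to 140.3 ± 3.66 (Psmb5, SD, n = 4 each), a ratio of 3.97, and the ratio of highest to lowest was 3.84 with the longest transcript, where Psmb4 was highest (185) and Psma3 lowest (48.3). Psma3 and Psmb5 are among the genes whose counts are uncertain through shared sequence. The assembly chaperones were at 6.89 (Psmd9), 10.6 (Psmd5) and 40.8 (Psmd10) for the base and between 6.74 (Psmg3) and 28.2 (Psmg1) for the core. Psmf1 was lowest by this length, at 6.35, but Psmg3 was lowest by the longest transcript (8.12 against 10.7 for Psmf1). Psme1 and Psme2 were at 90.2 and 85.4.

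**Figure D4:**
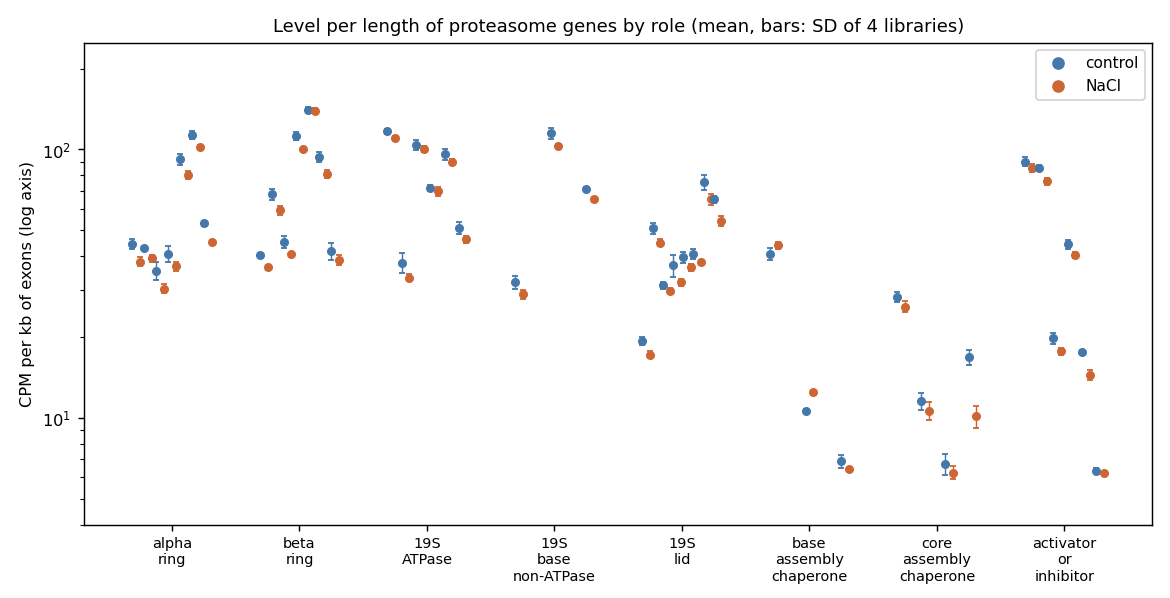
CPM per kilobase of exons on a log axis for the 44 members by role, control in blue and NaCl in orange, as mean with bars for the SD of 4 libraries. Most core and 19S genes lie between 30 and 120 in control and the assembly chaperones mostly below; each orange point lies beneath its blue neighbour except those of Psmd5 and Psmd10.

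Other genes of the pathway, in lists chosen with earlier results of these data known, were called at shares that can be read against the 17.2% lower and 16.9% higher of all tested genes. Of 18 partners and shuttle factors named otherwise 17 were tested, 4 fell and 3 rose, close to those shares, with a median log2 fold change of -0.01. The 4 lower calls were lost with the drift in the fit, and 3 genes were called higher, Ubqln4, Ipo9 and Uchl5, where 11.5% of all tested genes were. Pomp, the chaperone that matures the core, fell most, from 98.4, 103, 91.98 and 94.8 CPM to 87.9, 83.3, 82.3 and 85.4 CPM without overlap (-0.20, SE 0.042, edgeR adjusted p = 0.00146), and was at -0.10 with the drift in the fit (adjusted p = 0.353). Of the 3 called higher without the drift (Ubqln4, Ipo9 and Zfand5), Ubqln4, a shuttle for ubiquitin-tagged proteins, had the largest fold change. It rose from 131, 130, 130 and 128 CPM to 148, 151, 141 and 146 CPM without overlap (0.18, SE 0.033, edgeR adjusted p = 6.07e-04). The ubiquitin receptor Adrm1 (-0.05, adjusted p = 0.445) and the lid subunit Sem1 (-0.003, adjusted p = 0.98) were not called.

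NRF1, encoded by Nfe2l1, is known to raise proteasome genes when the proteasome is overloaded. Nfe2l1 was at 308, 313, 314 and 311 CPM in control and 330, 329, 322 and 336 CPM in NaCl libraries. Every NaCl library was higher, but the gene narrowly missed the threshold (log2 fold change 0.08, SE 0.030, edgeR adjusted p = 0.0517). It was called by DESeq2 (adjusted p = 0.0196), by limma-voom (0.0427), with library totals alone (0.0327) and with at least 10 counts in every library (0.0472), over a range from 0.0136 to 0.469. Of the 13 genes of this axis 2 fell, near the 17.2% of all tested genes, and none rose in edgeR (16.9% of all), while 1 was higher at an unadjusted p under 0.05 and 1 by DESeq2 and by limma-voom. Those that fell were Ngly1, whose product releases NRF1 from its sugar chains (-0.17, SE 0.056, edgeR adjusted p = 0.0254; with the drift -0.23, adjusted p = 0.147), and Vcp, the segregase that pulls it from the endoplasmic reticulum (-0.11, SE 0.039, edgeR adjusted p = 0.0413). The groups of Vcp overlapped, its value with the drift in the fit was 0.06 (edgeR adjusted p = 0.455), and 73.0% of its longest transcript is also found in Vcp-rs. In that fit Maff, a small partner protein of NRF1, was the gene of this list called (-0.71, edgeR adjusted p = 0.00458), against -0.14 and 0.507 without the drift.

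Of 6 ubiquitin and E1 enzyme genes 2 were called, both lower, where 34.1% of all tested genes were called in either direction. None rose, also at an unadjusted p under 0.05 and by DESeq2 and limma-voom. Rps27a, which encodes ubiquitin fused to a ribosomal protein, fell from 400, 426, 417 and 416 CPM to 316, 305, 318 and 325 CPM without overlap (-0.39, SE 0.033, edgeR adjusted p = 1.22e-07), and 49.0% of its longest transcript is also found in the pseudogene Rps27a-ps2. Uba6, an E1 enzyme, had overlapping groups and fell by 0.15 on the log2 scale (SE 0.046, edgeR adjusted p = 0.0216). Uba6 was at -0.09 with the drift in the fit and not called (edgeR adjusted p = 0.512), and Rps27a was at -0.46 (6.21e-08). Ubb, which encodes a chain of ubiquitin units, was not called (log2 fold change 0.01, SE 0.031, edgeR adjusted p = 0.812).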

How the data were processed

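RNA of 8 libraries (4 control, 4 NaCl) was sequenced in bulk. Per the submitters' processing notes, Trim Galore 0.6.7, STAR, DESeq2 1.34.0 and the build mm10 are named, with no role or order given. The counting program and strandedness are not given in the sources used here, so reads of genes that overlap on opposite strands may be mixed. The raw counts per gene deposited by the authors were the input; summed over all libraries no gene had fewer than 19 counts. The deposited table of normalized values (8 columns) was not used.

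The test was the robust quasi-likelihood test of edgeR 4.0.16 (R 4.3.3) for the group, without covariates, on TMM-scaled libraries. Genes had to pass filterByExpr with a count minimum of 10 (14024 passed, 1264 did not), and p-values were adjusted over them by Benjamini-Hochberg and called under 0.05. CPM used TMM-scaled totals. Alternatives were RLE, upper-quartile and total scaling, other count filters, DESeq2 1.42.0, limma-voom (limma 3.58.1), covariates for the library number, a threshold of 0.01, leaving out libraries, and leaving out the 8 members sharing over 10% of their transcript. The members, lists, motifs and tests were chosen with earlier results of these data known. Values in every library are given for the called genes with the highest and lowest fold change of each role (all called genes in roles of 3 or fewer), for active-site genes, for Psmd14, and for the inducible genes and Nfe2l1. Lengths, coordinates and shared sequence (blastn 2.17.0, at least 75 bases at 98% identity) came from GENCODE release M21 of GRCm38, which holds 15282 of the 15288 identifiers. The scripts were tested on simulated counts with genes changed by known folds. Of 50 genes each, 36% were recovered at 1.15-fold, 58% at 1.3-fold and 84% at both 1.5-fold and 2-fold. Of the 139 calls in that simulation 5.76% were false. With 4789 genes called in the real data, these shares do not carry over directly. Library totals ranged from 35286796 to 47565623 counts.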

Additional observations from a re-analysis of the deposited data

Results flagged for a closer look

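Single libraries far from the rest were sought by the gap to the nearest neighbour within 98 sets of 4 values (each member, the 3 inducible genes, Nfe2l1 and the totals, in both conditions). There were 10, where about 4.9 arise by chance. Total counts, in units of 1000000, were 47.57 in control replicate 1 (others 41.77 to 42.73) and 35.29 in NaCl replicate 5 (others 41.37 to 42.39). NaCl replicate 5 was high for Psmb7 (141.8 CPM, others 128.7 to 130.3), Psmc3 (271.2 CPM, others 257.9 to 258.7) and Psmd7 (158.4 CPM, others 143.8 to 145.2). Without it the log2 fold changes were -0.14 for Psmb7, -0.07 for Psmc3 and -0.24 for Psmd7. Control replicate 4 was low for Psmd5 (74.83 CPM, others 77.0 to 77.3) and Psmb2 (76.2 CPM, others 83.3 to 84.6) and high for Psme1 (210.1 CPM, others 193.9 to 196.4). Control replicate 3 was low for Psmd13 (100.8 CPM, others 106.3 to 107.4). Control replicate 1 was high for Psme3 (138.3 CPM, others 127.8 to 128.3), whose log2 fold change was -0.10 without it.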

How the results depend on the processing

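No paired analysis was possible because the replicate numbers of the 2 groups do not overlap. Over 48 genes (the members, the 3 inducible genes and Nfe2l1) and 19 alternative fits each, 912 values were compared, of which 836 kept direction and call. A linear drift over library numbers 1 to 8 changed most: members lower went from 28 to 7, the medians went from -0.16 to -0.089 (core) and from -0.17 to -0.01 (lid), and the ATPase median turned from -0.09 to 0.022. Under the drift these log2 fold changes turned positive: Psmd1 0.024, Psmb7 0.108, Psmd14 0.024, Psmc3 0.066, Psmc2 0.06, Psmd9 0.023, Psmc4 0.011, Psmd7 0.016, Psma4 0.072, Psmc5 0.033, Psmd6 0.022, Psmc6 0.004, Psmb5 0.014 and Psmg2 0.102. Psmb5, near 0 throughout, also turned with library totals alone (0.002) and without control replicates 1 and 2 (0.014), and ranged from -0.025 to 0.005 over single libraries left out, positive without control replicate 2 or NaCl replicate 6. The lid median was -0.11 without control replicates 1 and 2, an alternative chosen, with the joint omission of control replicate 1 and NaCl replicate 5, after seeing the data. With the library number centred within groups, members lower went from 28 to 33, members higher from 1 to 2 and all genes called from 4789 to 6030. Members higher ranged from 1 to 2 over single libraries left out; members lower then ranged from 25 to 31. Medians over single libraries left out ranged from -0.19 to -0.15 (core), -0.11 to -0.07 (ATPases) and -0.20 to -0.15 (lid). Per-length medians moved to 96.6 (core), 89.2 (ATPases) and 68.5 (lid) with the longest transcript. The cause was not tested, beyond the change of length in the last case. At a threshold of 0.01, 22 members were lower, and 24 were lower once the 8 sharing sequence were left out. Scaling, filters, DESeq2 and limma-voom left between 27 and 29 members lower and 1 higher. The biological coefficient of variation, from a common dispersion over all tested genes, was 6.386% and is not a value for the members alone. With 4 libraries a group, changes near 10% are to be read with caution and with the standard error of each gene.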
